A study of Mus musculus with 6 samples.

Results

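The genes described are 10 that act in sequence to make fatty acids from citrate and then to desaturate and lengthen them, Acly, Acaca, Fasn, Scd1, Scd2, Fads1, Fads2, Elovl1, Elovl5 and Elovl6. They were chosen by gene name from the 19832 genes of the deposited table, and 10 of 10 were found. The table covers 6 RNA sequencing libraries of EO771, a mouse mammary tumour cell line. Per the labels and the series' design, 3 libraries came from cells treated with recombinant lipocalin-2 (LCN2) protein and 3 from control cells without it, numbered 1 to 3 in each group. No dose, exposure time or batch is labelled, and all libraries come from a single cell line. The comparison asks how the transcriptome of these tumour cells differs when LCN2, a secreted lipocalin known for binding bacterial iron carriers, is added.

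In the cytosol, citrate exported from mitochondria is cleaved to acetyl-CoA, carboxylated to malonyl-CoA and built up into palmitate, a saturated fatty acid. Palmitate is then lengthened by elongases of the endoplasmic reticulum and given double bonds by desaturases, which sets how fluid membranes are and which fatty acids are available for storage lipids and signalling molecules. Many genes of this pathway are targets of the SREBP transcription factors, and many tumours make a large part of their fatty acids in this way.

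Values are FPKM, which divides fragment numbers by transcript length and by library size, so levels can be compared between genes. This unit was inferred from the values, and sequencing depth is unknown. Each library summed to between 391569 and 410808 FPKM and had between 13299 and 13461 genes above 0. The epithelial markers Krt8 and Krt18, fixed for this cell type, were present in each library, at 235 to 257 and 713 to 769 FPKM in LCN2 libraries and at 299.8 to 313 and 671 to 728 FPKM in control libraries. Cdh1, another epithelial marker, was between 0.0981 and 0.209 FPKM. LCN2 replicate 2 stood apart from the other LCN2 libraries. It scored 4.34 on the first principal component of the tested genes, where the other LCN2 libraries scored 15.7 and 16.5 and the control libraries between -17.3 and -8.09. Results are therefore also given without it. Whether each replicate was its own culture is not labelled. The p-values therefore measure only the spread between these samples, and that spread may be technical. In bulk RNA, fewer cells of a type and less RNA per cell cannot be told apart.

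Transcripts of 6 of the 10 genes fell with LCN2 and 0 rose. The genes that fell were Scd2, Elovl6, Fads2, Fasn, Elovl5 and Fads1, and the change of Acaca, Acly, Scd1 and Elovl1 did not pass the test. All 10 passed the filter on low values, which kept genes averaging 1 FPKM or more across the 6 libraries. The test was limma on log2(FPKM + 1) after libraries were scaled by TMM, a trimmed mean of log ratios, with Benjamini-Hochberg adjustment over 10309 genes and calls at an adjusted p under 0.05. By this rule 9.73% of all tested genes were called lower and 11.8% higher. At an unadjusted p under 0.05 in limma, 8 of the 10 were lower and 0 higher, where 18.8% of all tested genes were lower and 20.3% higher. The median log2 fold change of the 10 genes, LCN2 minus control, was -0.24, beside 0.00078 for all tested genes. After scaling, the LCN2 libraries lay below every control library in 8 of the 10 genes, where 21.6% of all tested genes did so. With the values as deposited and no scaling, 8 of the 10 genes were lower (background 16.3%), Acly and Acaca having joined the others. In that setting 1680 of all genes were called lower and 693 higher, against 1003 lower and 1213 higher with TMM scaling.

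**Figure D1:**
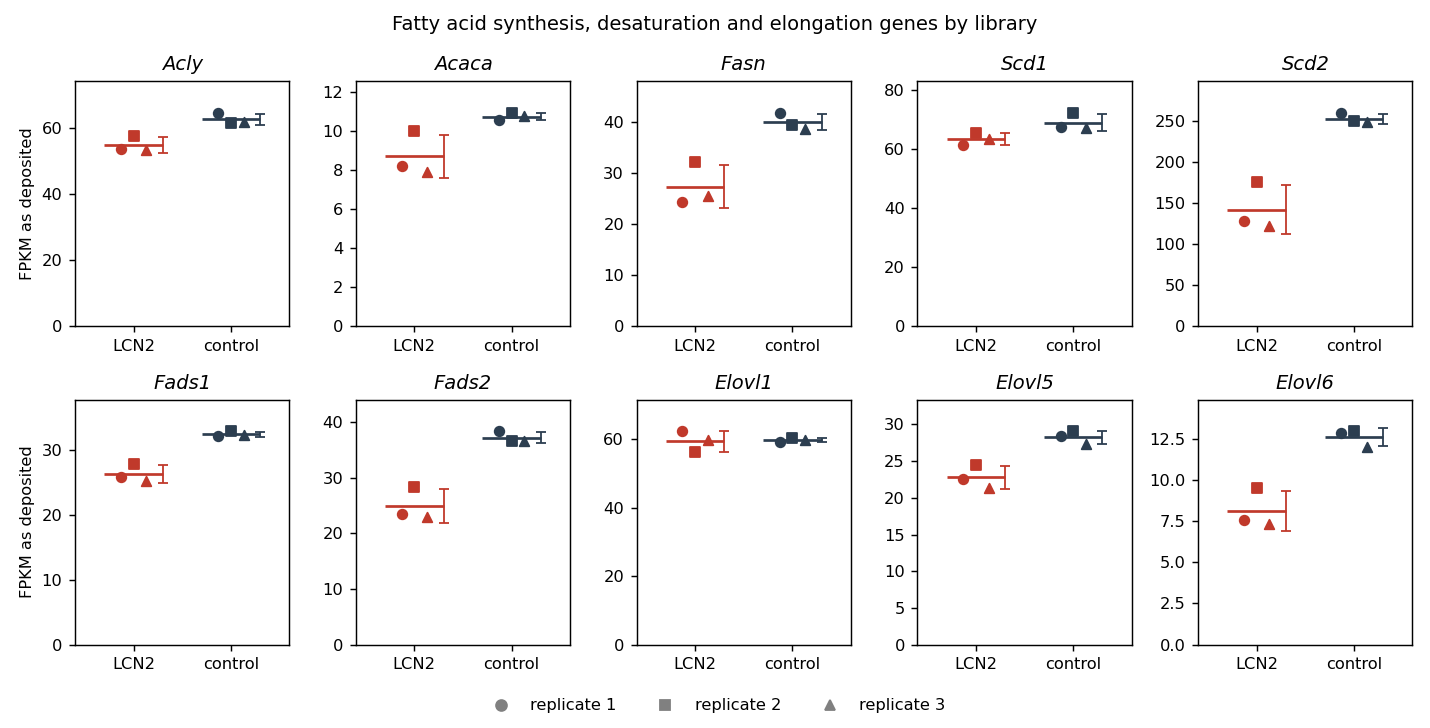
Deposited FPKM (y axis, from 0) of each gene in the LCN2 and control libraries (x axis), with a symbol for each replicate number, the group mean as a line and the SD as a bar beside it (n = 3 each). Scd2, at 122 to 176 FPKM in LCN2 libraries and 249 to 259.5 FPKM in control libraries, shows the widest gap, the groups overlap for Elovl1, and LCN2 replicate 2 is the LCN2 library nearest the controls for Scd2, Fasn, Fads2 and Elovl6.

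Of the genes of the synthesis route, from citrate cleavage to the synthase, only Fasn passed the test. Acly encodes ATP citrate lyase, which supplies cytosolic acetyl-CoA (chromosome 11, 100476353 to 100528000, GRCm38). It had 53.5, 57.5 and 53.2 FPKM in LCN2 replicates 1 to 3, against 64.5, 61.5 and 61.7 FPKM in control replicates 1 to 3. As deposited the LCN2 libraries were all lower, but after scaling the groups overlapped, and the difference did not pass (log2 fold change -0.13, SE 0.05, limma adjusted p = 0.11). With the values as deposited Acly did pass (adjusted p = 0.032). Acaca encodes the cytosolic acetyl-CoA carboxylase, whose product malonyl-CoA is the building unit of the chain (chromosome 11, 84129672 to 84401651). Its values were 8.21, 9.97 and 7.91 FPKM with LCN2, against 10.5, 10.9 and 10.7 FPKM in controls. LCN2 replicate 2 was close to the controls and the other LCN2 libraries were clearly lower. The fold change was -0.22 on the log2 scale (SE 0.08, limma adjusted p = 0.078). Acaca passed without LCN2 replicate 2 (adjusted p = 0.0090) and with the values as deposited (adjusted p = 0.045).

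Fatty acid synthase, encoded by Fasn (chromosome 11, 120805846 to 120824547), assembles palmitate from acetyl-CoA and malonyl-CoA, and its transcript fell. It had 24.3, 32.2 and 25.4 FPKM in LCN2 replicates 1 to 3, against 41.7, 39.4 and 38.6 FPKM in control replicates 1 to 3. All LCN2 libraries were below all controls, with LCN2 replicate 2 about midway. The means were 27.3 ± 4.24 FPKM with LCN2 and 39.9 ± 1.60 FPKM in controls (SD, n = 3 each), with a log2 fold change of -0.48 (SE 0.10, limma adjusted p = 0.018). The call was lost without LCN2 replicate 1 or 3 or control replicate 1 or 3 (adjusted p up to 0.071).

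Promoter sequences were read from RefSeq (GRCm38.p6) for 7 of the 10 genes. They are shown for a gene of the synthesis step that fell, an elongase gene that fell and an elongase gene that did not pass, as the bases before the annotated start, 5′ to 3′ on the strand of the gene. The windows lie at chr11:120824548-120824797 (minus strand) for Fasn, chr9:77917115-77917363 (plus strand) for Elovl5 and chr4:118427843-118428092 (plus strand) for the first of the annotated Elovl1 starts. Capitals mark matches, on either strand, to CCAAT (bound by NF-Y, a partner of SREBP), CACGTG (an E-box), GGGCGG (a GC box) and TCACNCCAC (a sterol regulatory element).
Fasn: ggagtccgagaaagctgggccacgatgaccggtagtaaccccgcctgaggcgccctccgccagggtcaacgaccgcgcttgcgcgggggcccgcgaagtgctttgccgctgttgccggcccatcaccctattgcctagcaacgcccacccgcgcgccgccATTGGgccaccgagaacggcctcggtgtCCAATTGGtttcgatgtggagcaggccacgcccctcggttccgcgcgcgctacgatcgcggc
Elovl5: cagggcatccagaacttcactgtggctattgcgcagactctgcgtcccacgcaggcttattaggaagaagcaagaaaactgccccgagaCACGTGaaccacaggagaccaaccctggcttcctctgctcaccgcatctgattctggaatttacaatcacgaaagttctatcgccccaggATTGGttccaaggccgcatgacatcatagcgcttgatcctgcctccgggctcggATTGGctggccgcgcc
Elovl1: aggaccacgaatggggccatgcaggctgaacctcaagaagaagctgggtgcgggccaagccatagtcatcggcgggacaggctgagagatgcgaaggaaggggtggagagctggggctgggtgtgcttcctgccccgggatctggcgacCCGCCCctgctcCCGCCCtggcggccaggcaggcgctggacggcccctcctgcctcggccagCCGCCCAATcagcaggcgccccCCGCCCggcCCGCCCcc

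The Fasn window held 3 matches to CCAAT, of which a pair overlaps in opposite directions, and the Elovl5 window held 2, with 1 match to CACGTG. In the Elovl1 window there were 1 match to CCAAT, which overlaps a GC box, and 5 matches to GGGCGG. The windows of Elovl6 and Fads2, which fell, held 0 matches to CCAAT, as did those of Acly and Acaca, and Elovl6 held 0 to any of the 4 motifs. All 250 bases of the Acaca window and 243 of the Fads2 window lie inside the gene as annotated in GENCODE. These windows therefore cover few or none of the bases before the GENCODE start. Of the Elovl6 window, 31 bases lie inside the gene and 98 of the others in an annotated exon. Among 32851 promoter windows of 250 bases, 33.8% held CCAAT, 6.02% CACGTG, 32.7% GGGCGG and 1.05% TCACNCCAC. None of the windows of the 7 genes held TCACNCCAC, which says only that these letters are not in these windows. A match describes the sequence and is no measure of binding.

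Of the stearoyl-CoA desaturases, which place the first double bond in saturated chains and so make monounsaturated fatty acids such as oleate, Scd2 fell while Scd1 did not pass the test. Scd2 (chromosome 19, 44293674 to 44306864) had 128, 176 and 122 FPKM in LCN2 replicates 1 to 3, against 259.5, 249 and 249 FPKM in control replicates 1 to 3. It was the most abundant of the 10 transcripts in every library. Its means were 142 ± 29.7 FPKM with LCN2 and 252 ± 6.11 FPKM in controls (SD, n = 3 each), a log2 fold change of -0.78 (SE 0.12, limma adjusted p = 0.0099). Without LCN2 replicate 1 the call was lost (adjusted p = 0.052), and without LCN2 replicate 2 the change was -0.94 (adjusted p = 0.000882). Exons of Scd2 overlap the microRNA gene Mir5114.

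Scd1 (chromosome 19, 44394455 to 44407879), the form best known from liver and fat tissue of the mouse, had 61.4, 65.3 and 63.3 FPKM with LCN2, against 67.5, 72.2 and 67.1 FPKM in controls. The groups did not overlap but lay close together, and the log2 fold change of -0.06 (SE 0.04) did not pass (limma adjusted p = 0.29, and adjusted p between 0.19 and 0.59 when 1 library was left out). The coding sequences of Scd1 and Scd2 are 90.7% identical over 1064 aligned bases of the annotated transcripts. Of the stretches of 50 bases in Scd1 transcripts, 2.97% also occur in Scd2, so reads from a small part of these transcripts could have been assigned to either gene. Scd3 and Scd4, the other stearoyl-CoA desaturase genes of the mouse, were at or below 0.977 FPKM in every library and were not tested. Scd2 made up 67.5%, 72.9% and 65.8% of the summed Scd1 and Scd2 FPKM in LCN2 replicates 1 to 3, against 79.4%, 77.5% and 78.7% in control replicates 1 to 3.

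Of the genes for polyunsaturated fatty acid desaturation, Fads1 and Fads2 both fell. Fads2 encodes the desaturase of the first step in making long polyunsaturated fatty acids from dietary precursors (chromosome 19, 10062765 to 10101746). It had 23.5, 28.4 and 22.9 FPKM in LCN2 replicates 1 to 3, against 38.3, 36.6 and 36.7 FPKM in control replicates 1 to 3. The gap between the groups was wider than the spread within either. Its log2 fold change was -0.50 (SE 0.08, limma adjusted p = 0.010), and the call was lost without LCN2 replicate 1 (adjusted p = 0.053).

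Fads1, which acts later in the same route and yields arachidonate (chromosome 19, 10182888 to 10196877), had 25.8, 27.8 and 25.3 FPKM with LCN2, against 32.1, 32.9 and 32.3 FPKM in controls. Again no LCN2 library reached a control. The fall was smaller, -0.23 on the log2 scale (SE 0.05, limma adjusted p = 0.017), and it was no longer called without LCN2 replicate 1 or 3 or control replicate 1 or 3 (adjusted p up to 0.076). Fads1 and Fads2 transcripts share no stretch of 50 bases.

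Of the 3 elongases, which add carbons to existing chains, Elovl6 and Elovl5 fell and Elovl1 did not pass. Elovl6 lengthens palmitate to stearate (chromosome 3, 129532355 to 129638495). It had 7.59, 9.56 and 7.33 FPKM in LCN2 replicates 1 to 3, against 12.9, 13.0 and 12.0 FPKM in control replicates 1 to 3. No LCN2 library reached the controls, and LCN2 replicate 2 was again the highest of its group. The log2 fold change was -0.52 (SE 0.09, limma adjusted p = 0.012), and the call was lost without LCN2 replicate 1 (adjusted p = 0.056). An antisense gene, Gm35986, overlaps exons of Elovl6, and the treatment of strand is not given in the sources used here, so reads of the pair cannot be told apart.

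Elovl5, which lengthens polyunsaturated chains between the steps of Fads2 and Fads1 (chromosome 9, 77917364 to 77984519), had 22.5, 24.5 and 21.4 FPKM with LCN2, against 28.4, 29.0 and 27.3 FPKM in controls. The groups did not overlap. Its log2 fold change of -0.24 (SE 0.05, limma adjusted p = 0.022) was close to that of Fads1, and the call was lost in the same 4 fits that left out 1 library (adjusted p up to 0.085). Elovl1 makes the very long saturated and monounsaturated chains of sphingolipids (chromosome 4, 118428093 to 118432953). It had 62.3, 56.3 and 59.7 FPKM with LCN2, against 59.3, 60.5 and 59.8 FPKM in controls, and the groups overlapped. Its log2 fold change was 0.05 (SE 0.05, limma adjusted p = 0.50), and -0.012 with the values as deposited. Exons of Elovl1 overlap those of Cdc20 on the opposite strand.

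**Figure D2:**
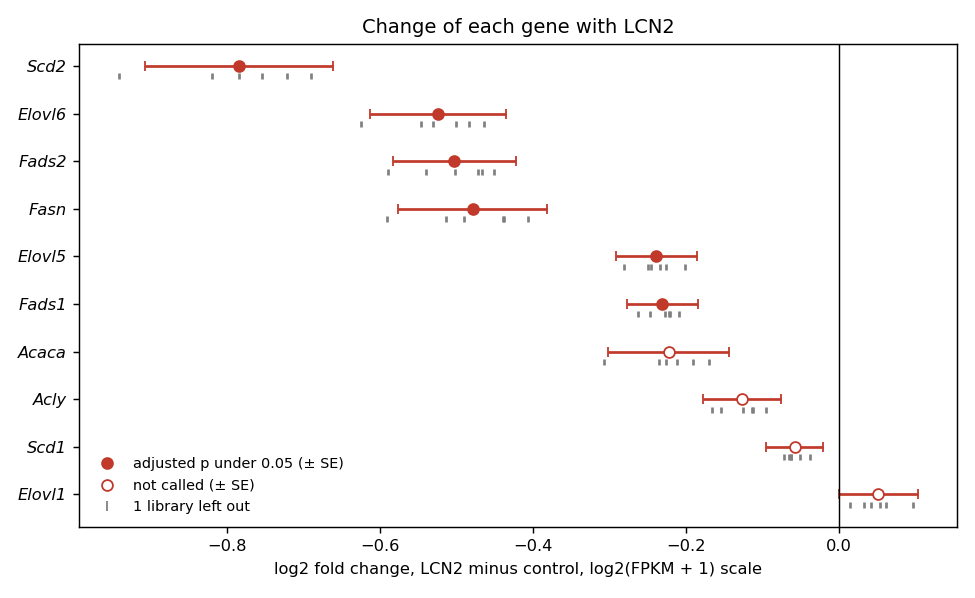
Log2 fold change of LCN2 over control, from log2(FPKM + 1) values (x axis) for each gene (rows), with SE bars from limma, filled circles for genes called at an adjusted p under 0.05 and grey ticks for the fits that left out 1 library. Scd2 lies farthest from 0 at -0.78, Elovl6, Fads2 and Fasn lie between -0.52 and -0.48, Elovl5 and Fads1 near -0.24, and Elovl1, at 0.05 here, was at -0.012 with the values as deposited.

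In level, the 10 genes formed 4 tiers. Scd2 stood above all others in every library. Scd1, Acly and Elovl1 followed, at 53.2 to 65.3 FPKM in LCN2 libraries and 59.3 to 72.2 FPKM in control libraries, and in the LCN2 libraries the range of Elovl1 overlapped those of both Scd1 and Acly. Fasn, Fads2, Fads1 and Elovl5 came next, at 21.4 to 32.2 FPKM with LCN2 and 27.3 to 41.7 FPKM in controls. Acaca and Elovl6 were lowest, at 7.33 to 9.97 FPKM with LCN2 and 10.5 to 13.0 FPKM in controls. Some neighbours changed places. Acaca was above Elovl6 in each LCN2 library and below it in each control library, and Fads1 was above Fads2 in LCN2 replicates 1 and 3 and below it in LCN2 replicate 2 and in each control library. Summed over the 10 genes, the level was 417, 487 and 408 FPKM in LCN2 replicates 1 to 3, against 615, 606 and 595 FPKM in control replicates 1 to 3. This was 0.111% ± 0.0107 of all FPKM of a library with LCN2 and 0.151% ± 0.00328 in controls (SD, n = 3 each). Without Scd2, the share was 0.0753% ± 0.00329 with LCN2 and 0.0877% ± 0.00116 in controls.

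Ratios between genes within a library do not depend on scaling between libraries, and 6 pairs were compared. Each pair sets genes of unlike fold change beside each other, so the ratios restate those changes within each library and are not separate evidence. The largest difference was between the stearoyl-CoA desaturases. Scd2 had 1.92 to 2.69 times the FPKM of Scd1 in LCN2 libraries, against 3.45 to 3.84 times in control libraries, a difference in log2 ratio of -0.73 (SE 0.15). The Fads1 to Fads2 ratio was 0.978 to 1.11 with LCN2 and 0.838 to 0.898 in controls (difference in log2 ratio 0.28, SE 0.06). Among elongases, the Elovl6 to Elovl5 ratio was 0.337 to 0.391 with LCN2 and 0.440 to 0.455 in controls, with a difference in log2 ratio of -0.33 (SE 0.07).

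The Elovl1 to Elovl5 ratio was 2.30 to 2.79 with LCN2 and 2.08 to 2.19 in controls (difference in log2 ratio 0.30, SE 0.09). The Acaca to Fasn ratio was 0.310 to 0.337 with LCN2 and 0.253 to 0.278 in controls (difference in log2 ratio 0.25, SE 0.06), and the Acly to Fasn ratio was 1.79 to 2.20 with LCN2 and 1.55 to 1.60 in controls (difference 0.36, SE 0.09). The groups did not overlap in any of the 6 ratios. For each of them the exact permutation test, two-sided with n = 3 each, gave p = 0.1, the smallest value that this test can give for 3 against 3, and adjusted p = 0.1 over the 6 ratios.

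**Figure D3:**
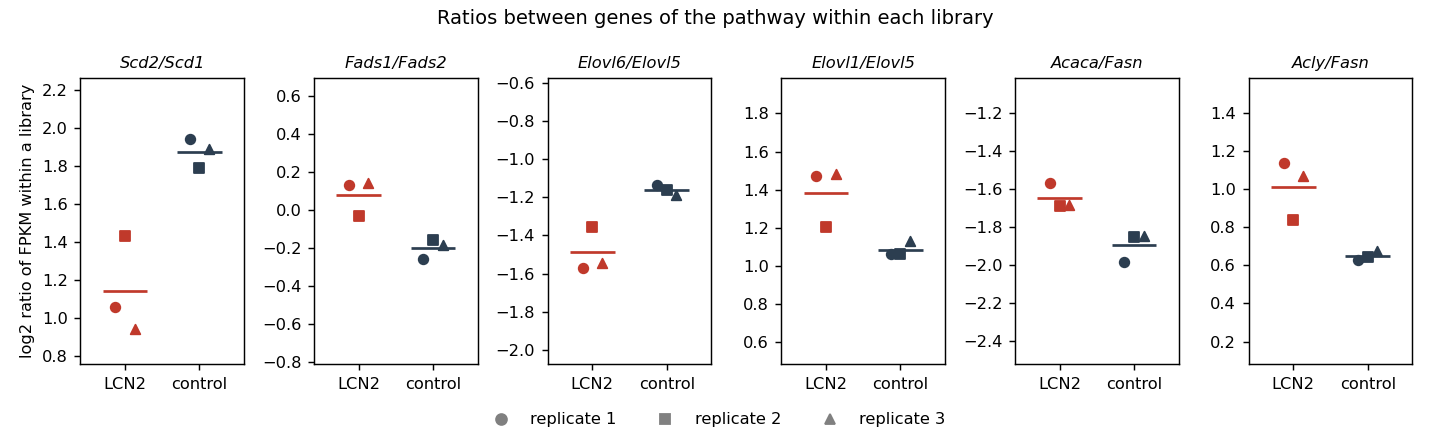
Log2 ratio of FPKM between 2 genes within a library (y axis, with the same span in each panel) in the LCN2 and control libraries (x axis), with a symbol for each replicate number and the group mean as a line. The groups are apart in each panel, most for Scd2 to Scd1, with means of 1.14 in LCN2 libraries and 1.87 in control libraries.

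The calls rested on the libraries used. Without LCN2 replicate 2, 7 of the 10 genes were lower, with Acaca added, where 14.6% of all tested genes were. In that replicate the 6 genes that fell showed 48.4% to 65.9% of the shift seen in the other LCN2 libraries, and the median over all 2216 called genes was 61.8%. Without control replicate 1, control replicate 3 or LCN2 replicate 3, the count was 3 of 10 in each case (Scd2, Fads2 and Elovl6), where 2.16%, 1.56% and 1.75% of all tested genes were called lower. Without control replicate 2 it was 6 (background 7.36%). Without LCN2 replicate 1 it was 0 of 10, with the background at 0.864%, and the adjusted p of the 6 genes was then between 0.052 and 0.085. All 9 genes with a negative fold change kept that sign in each of these fits. In 8 of them every scaled LCN2 library lay below every control library, so leaving out 1 library could hardly change the sign.

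Other genes of the pathway were taken from 8 lists with 90 tested genes, of which 32 fell (35.6%) and 7 rose (7.78%), where 9.73% of all tested genes fell and 11.8% rose. Genes that supply the synthase with acetyl-CoA, citrate and NADPH were listed together with accessory genes of the route. Of the 8 tested members of that list, 2 fell (25%) and 0 rose. At an unadjusted p under 0.05 in limma, 5 were lower and 0 higher, where 18.8% of all tested genes were lower and 20.3% higher. The median log2 fold change was -0.30. G6pdx, the first enzyme of the pentose phosphate pathway and a source of NADPH, averaged 34.2 ± 3.55 FPKM with LCN2 and 48.5 ± 1.28 FPKM in controls (log2 fold change -0.43, limma adjusted p = 0.011). Idh1, the cytosolic isocitrate dehydrogenase, which also yields NADPH, averaged 49.4 ± 6.84 FPKM with LCN2 and 70.0 ± 1.43 FPKM in controls (-0.44, limma adjusted p = 0.015). G6pdx lost its call without LCN2 replicate 1, and Idh1 without LCN2 replicate 1 or 3 or control replicate 1 or 3. Exons of G6pdx overlap those of Ikbkg. With the values as deposited 5 of the 8 were lower, where 16.3% of all tested genes were, against 9.73% after scaling.

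Among 9 tested genes for other desaturases and for the remaining steps of the elongation cycle, 4 fell (44.4%) and 2 rose (22.2%). Over all tested genes 9.73% fell and 11.8% rose. The list median was -0.09. Fads3, a relative of Fads1 and Fads2 that acts on sphingoid bases, rose. It had 27.1, 25.2 and 31.6 FPKM in LCN2 replicates 1 to 3, against 17.3, 19.5 and 17.0 FPKM in control replicates 1 to 3 (log2 fold change 0.67, SE 0.09, limma adjusted p = 0.0058), and it was called whichever library was left out. Fads6, whose function is less well known, rose by 0.38 (limma adjusted p = 0.018). The dehydratase gene Hacd3 fell (-0.33, limma adjusted p = 0.011), as did Tecr (-0.15, limma adjusted p = 0.044), which encodes the reductase that ends each cycle. Hacd1 (-0.32) and Hacd4 (-0.31), named after their values were seen, complete the 4 falls. Fads6 was not called without LCN2 replicate 1 or 3 or control replicate 1 or 3, Hacd3 without control replicate 3 or LCN2 replicate 1, Hacd1 in any of the 6 fits that left out 1 library, and Tecr and Hacd4 in any but the fit without LCN2 replicate 2. Fatty acid synthesis inside mitochondria is a separate route, and 0 of its 6 tested genes passed in limma, with 2 higher and 0 lower at an unadjusted p under 0.05, where 20.3% of all tested genes were higher and 18.8% lower (median 0.10). The 2 were Cbr4 at 0.34 (adjusted p = 0.053) and Oxsm at 0.14 (adjusted p = 0.11). Cbr4 passed without LCN2 replicate 2 (adjusted p = 0.038).

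Among 19 tested genes of SREBP, LXR and ChREBP control, 4 fell (21.1%, where 9.73% of all tested genes fell). In the same list 2 rose (10.5%, near the 11.8% of all tested genes), and the median was -0.05. At an unadjusted p under 0.05 in limma, 5 of the 19 were lower and 4 higher. Of all tested genes, 18.8% were lower and 20.3% higher at that threshold. Srebf1, which encodes SREBP-1, the main activator of fatty acid synthesis genes, had 23.6, 29.6 and 21.4 FPKM in LCN2 replicates 1 to 3, against 36.4, 38.1 and 35.5 FPKM in control replicates 1 to 3 (log2 fold change -0.49, SE 0.10, limma adjusted p = 0.018). The groups did not overlap, and LCN2 replicate 2 was the highest of its group. Smaller falls were called for Srebf2, which encodes the activator of sterol synthesis (-0.17, limma adjusted p = 0.030), and for Mlx, the partner of ChREBP (-0.30, limma adjusted p = 0.031). The NF-Y subunit gene Nfyb rose to 24.6 ± 1.40 FPKM with LCN2, against 18.4 ± 0.461 FPKM in controls (0.46, limma adjusted p = 0.0058). Nr1h2 (-0.23) was also lower and Sp1 (0.18) higher, both named after their values were seen. Nfyb was called whichever library was left out, Srebf1 was not without LCN2 replicate 1 or 3 or control replicate 1 or 3, and Srebf2, Mlx, Nr1h2 and Sp1 were called only without LCN2 replicate 2 among those 6 fits. Exons of Srebf1 overlap those of Rai1 and Mir6922, and exons of Mlx overlap those of Psmc3ip.

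A list covered AMPK, the kinase that inhibits acetyl-CoA carboxylase, and the Tribbles and COP1 proteins. Of these, TRIB3 and COP1 mark that carboxylase for degradation. Of its 11 tested genes, 2 rose (18.2%) and 2 fell (18.2%), where 11.8% of all tested genes rose and 9.73% fell (list median -0.11). The rises were in Trib3, to 53.7 ± 14.6 FPKM with LCN2, against 19.2 ± 9.46 FPKM in controls (1.56, limma adjusted p = 0.018), and in Cop1 (0.21, limma adjusted p = 0.036). Trib2 (-0.64, limma adjusted p = 0.014) and the AMPK catalytic subunit gene Prkaa1 (-0.24, limma adjusted p = 0.041) fell. Trib2 and Trib3 were not called without LCN2 replicate 1 or 3 or control replicate 1 or 3. Among the fits that left out 1 library, Cop1 and Prkaa1 were called only in that without LCN2 replicate 2.

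Genes that activate fatty acids and place them in glycerolipids fell in 4 of 14 tested members (28.6%) and rose in 0. Over all tested genes 9.73% fell and 11.8% rose. At an unadjusted p under 0.05 in limma, 2 of the 14 were higher and 4 lower, where 20.3% of all tested genes were higher and 18.8% lower. The list median was -0.02. Acsl1, an acyl-CoA synthetase, averaged 32.5 ± 3.74 FPKM with LCN2 and 47.4 ± 2.12 FPKM in controls (-0.47, limma adjusted p = 0.0097). Smaller falls were in Lpcat3, which places polyunsaturated chains in phospholipids (-0.17, limma adjusted p = 0.028), Acsl5 (-0.14, limma adjusted p = 0.040) and Lpin1, a phosphatidate phosphatase (-0.41, limma adjusted p = 0.040). The uptake and binding list had 3 tested members of 7. Of these, the binding protein gene Fabp5 (-0.31, limma adjusted p = 0.023) and the transporter gene Slc27a4 (-0.30, limma adjusted p = 0.035) fell (66.7%, list median -0.30). Acsl1 lost its call only without LCN2 replicate 1. Lpin1, Fabp5 and Slc27a4 lost theirs without LCN2 replicate 1 or 3 or control replicate 1 or 3, and Lpcat3 and Acsl5 in those fits and without control replicate 2. Exons of Acsl1, Acsl5 and Lpcat3 overlap those of genes on the opposite strand.

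Sterol synthesis genes share the SREBP system with many genes of fatty acid synthesis, and a part of SREBP in these changes was not tested. Of the 20 tested members, 14 fell (70%) and 1 rose (5%). Over all tested genes 9.73% fell and 11.8% rose. The list median was -0.44. The 4 with the smallest adjusted p were Pmvk (-0.65), Stard4 (-0.78), Fdps (-0.63) and Acat2 (-0.80), with limma adjusted p between 0.0075 and 0.012. The rise was in Msmo1 (0.19, limma adjusted p = 0.035), named after its values were seen. Without LCN2 replicate 1 the 14 falls became 2, where 0.864% of all tested genes were lower. Without control replicate 3 they became 3 (background 1.56%) and without control replicate 1 they became 6 (background 2.16%). Without LCN2 replicate 3 they became 7 (background 1.75%). Leaving out control replicate 2 gave 12 falls (background 7.36%), and leaving out LCN2 replicate 2 gave 17 (background 14.6%). Pmvk and Stard4 were called in all 6 of these fits, Fdps in all but that without LCN2 replicate 1, and Acat2 in all but those without control replicate 3 or LCN2 replicate 1. Msmo1 was called only without LCN2 replicate 2. Exons of Fdps overlap those of Gm43738, a protein-coding gene on the same strand.

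**Figure D4:**
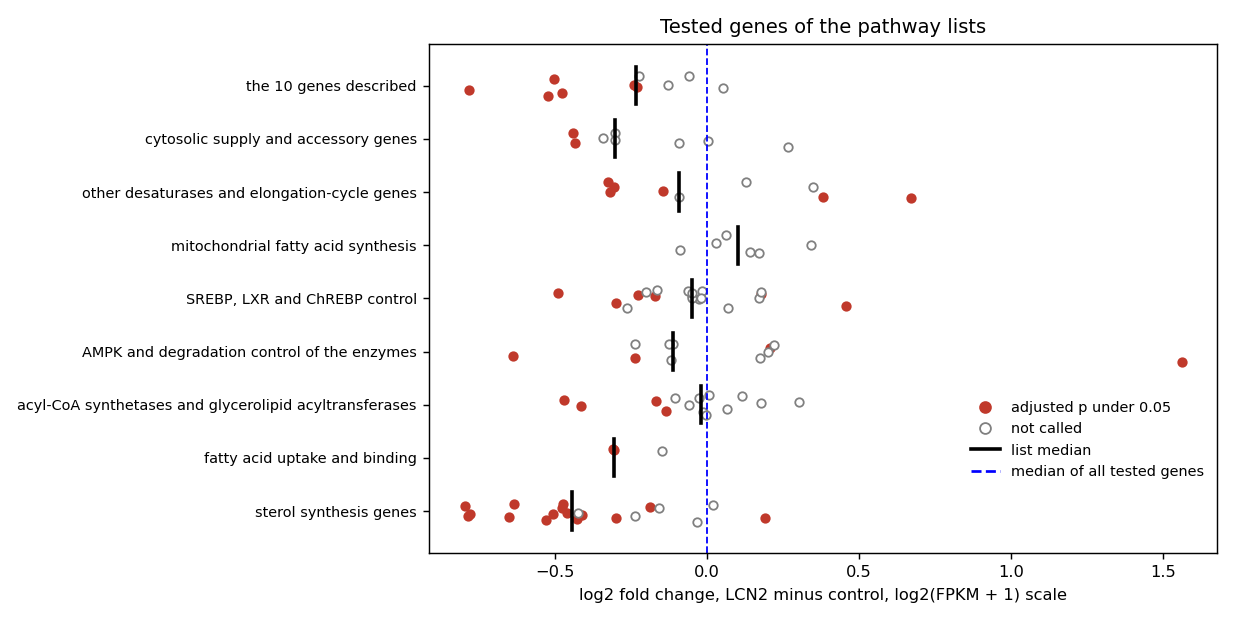
Log2 fold change of LCN2 over control, from log2(FPKM + 1) values (x axis) of each tested gene in the 10 genes described and the 8 pathway lists (rows), with filled points for genes called at an adjusted p under 0.05 and a bar at each list's median. The medians of the 10 genes (-0.24) and of sterol synthesis (-0.44) lie left of the median of all tested genes (0.00078), that of mitochondrial fatty acid synthesis (0.10) lies right of it, and Trib3 is the point at 1.56.

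Marker lists of the cell types that such a culture could hold were also measured. Some markers of other cell types were near 0, while Dcn, Pdgfra, Cd68 and Pparg were above 1 FPKM in every library. The adipocyte list summed to 3.20 to 4.08 FPKM in LCN2 libraries and 2.63 to 3.77 FPKM in control libraries over 6 matched genes of 8. Lep and Retn were at 0 in every library, Adipoq and Plin1 were at most 0.0276 FPKM, and Pparg made up nearly all of the sum. The mast cell list, with 4 matched genes of 6, was at 0 in every library. Of the leukocyte list Ptprc was at most 0.0868 FPKM. The sum over 3 matched genes of 6, mostly Cd68, was 9.54 to 10.3 FPKM with LCN2 and 8.84 to 10.7 FPKM in controls. Itgam, in the same list, was at 0.631 to 0.839 FPKM with LCN2 and 1.09 to 1.34 FPKM in controls, and was not tested. The fibroblast list, with 3 matched genes of 6, summed to 581 to 612 FPKM with LCN2 and 489 to 545 FPKM in controls, nearly all from Dcn. Pdgfra was at 3.44 to 3.86 FPKM with LCN2 and 3.67 to 4.64 FPKM in controls, while Col1a1 was at most 0.134 FPKM. The epithelial list summed to 1280 to 1313 FPKM with LCN2 and 1302 to 1371 FPKM in controls over 7 matched genes of 8. In it Krt8 (-0.27) and Krt19 (-0.22) were called lower and Krt18 (0.17), Cldn3 (0.47) and Cldn4 (1.23) higher. Dcn was higher with LCN2 (0.30, limma adjusted p = 0.0062), and the part of these marker changes in the results above was not tested. The Lcn2 transcript itself was at 0.276 ± 0.0347 FPKM with LCN2 and 0.0891 ± 0.0328 FPKM in controls (SD, n = 3 each; p = 0.1, two-sided exact permutation test), below the level required for the fit across genes.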

How the data were processed

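Per the labels' protocols, RNA came from an RNeasy column kit and libraries from a SMARTer mRNA kit. The authors deposited 1 table of 19832 genes in 6 libraries. It is named as a raw count table, yet 0% of its non-zero values were whole numbers (tolerance 1e-09), and the deposited values were treated as FPKM, an inference. Values times the longest annotated transcript in kilobases summed to between 1032630 and 1095180 per library. The build was GRCm38, per the submitters' processing notes. The sources used here name no aligner, quantifier or strand setting. Whole reads were not recovered: among 396 to 428 genes of low value with 1 transcript, the commonest ratio between libraries was shared by 3 to 5 (tolerance 0.002, log2). Depth is therefore unknown, and no counting intervals are given.

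Values were scaled by unweighted TMM over the tested genes (trims 0.3 and 0.05; divisors 0.970 to 1.06) and log2(FPKM + 1) was tested with limma 3.58.1 in R 4.3.3, with a variance trend and no replicate term, for the 10309 genes averaging 1 FPKM or more. Fold changes are on that scale, which understates changes of low genes. The fit was tested on simulated data. Ratios were tested by exact permutation in scipy 1.17.1. Gene positions and exon overlaps come from GENCODE M21, in which 19798 gene IDs were found and 34 were not. The members and lists were chosen with earlier results of these data known. Named genes are the 10 members, Lcn2, and in each list up to 4 called genes of smallest adjusted p, or 2 where none was called. In the gene lists, 14 entries had no match and are not analysed here. Alternatives were other scalings, pseudocounts and filters, no variance trend, each library left out and a replicate block.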

Additional observations from a re-analysis of the deposited data

How the results depend on the processing

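Of the 10 genes, between 0 and 7 were called lower and 0 higher when 1 library was left out. Over all tested genes these fits called 89 to 1501 lower and 179 to 1659 higher, and in the 8 pathway lists 2 to 38 lower and 2 to 13 higher. Fewer libraries leave fewer residual degrees of freedom. With the values as deposited, 1680 genes were lower and 693 higher, 4 pathway genes were higher, and Elovl1 was -0.012 in place of 0.05, the 1 reversal among the genes named. Without a filter on low values, 601 genes and 21 pathway genes were lower, with more genes tested. The count of 6 held under column-sum, median-ratio and quantile scaling, a pseudocount of 0.1, both other filters and no variance trend. Precision is limited by 3 libraries per group and unknown depth.

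The labels do not say whether the replicate numbers pair the samples. The deviations of same-numbered libraries from their group means correlated at -0.22, -0.26 and 0.0086 across genes, and no library correlated best with its own number. Deviations from means of 3 libraries are tied to each other, so these correlations cannot decide whether the samples were paired. With the replicate block, 1 of the 10 genes (Scd2) was lower, where 0.786% of all tested genes were. Elovl6, Fads2, Fasn, Elovl5 and Fads1 lost their calls (limma adjusted p between 0.051 and 0.074). In that fit 81 genes were lower and 181 higher over all, and 2 pathway genes were lower and 2 higher.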
